A study of Mus musculus with 4 samples.

Results

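Vil1, Avil and Fabp2 are the 3 genes described here, of 2701 genes in the deposited table of pyloric stomach RNA. They were taken by name: Vil1 and Avil as the villin genes of the actin-severing villin and gelsolin family, and Fabp2 as the fatty acid binding protein of enterocytes. The Lats1/2 KO group (2 libraries, labelled Lats1/2iΔLgr5) came from Lats1fl/fl;Lats2fl/fl;Lgr5-CreER mice, and the WT group (2 libraries) from Lats1fl/fl;Lats2fl/fl mice without Cre. All were C57BL/6 and were collected 8 weeks after tamoxifen. Lgr5-CreER recombines the floxed genes in Lgr5-positive cells, whose progeny keep the deletion, so KO sections hold recombined and unrecombined cells together, and effects of the Cre allele and of the deletion cannot be told apart. RNA came from several 10 µm cryosections of the pylorus, and fewer cells of a type cannot be told apart from less RNA per cell. The table lists only genes that the authors called different at an adjusted p of up to 0.05, and a gene without a row was not analysed here.

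Villin bundles the actin core of microvilli and severs filaments when calcium rises. It is a defining protein of the intestinal brush border and is also made by gastric epithelium. Advillin, the product of Avil, is its closest relative and is best known from sensory neurons and from tuft cells, the chemosensory cells of gut epithelium. FABP2 is a small cytosolic carrier of long-chain fatty acids in enterocytes.

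All 3 genes lie on the plus strand, and the promoter sequence upstream of each is shown because the 3 transcripts fell together. The sequences are from RefSeq on GRCm38.p6, 5′ to 3′, each ending at the base before the RefSeq start. Capitals mark matches to any of 6 short motifs searched on both strands: GGAATG for TEAD factors, TATAAA for the box of the basal promoter, TTTATG for CDX factors, AGATAA for GATA factors, CAAAGT for HNF4 factors and TGANTCA for AP-1.
Vil1, chr1:74409134-74409383: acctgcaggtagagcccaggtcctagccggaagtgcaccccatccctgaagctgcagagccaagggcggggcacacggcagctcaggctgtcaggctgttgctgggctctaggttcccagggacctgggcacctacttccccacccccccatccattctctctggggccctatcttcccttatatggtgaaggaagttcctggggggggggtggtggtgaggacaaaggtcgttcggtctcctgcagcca
Avil, chr10:127000459-127000708: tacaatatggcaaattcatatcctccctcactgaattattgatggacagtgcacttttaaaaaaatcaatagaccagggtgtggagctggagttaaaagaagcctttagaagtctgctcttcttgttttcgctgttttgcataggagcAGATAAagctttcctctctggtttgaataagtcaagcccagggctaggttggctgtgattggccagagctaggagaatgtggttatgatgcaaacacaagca
Fabp2, chr3:122894822-122895071: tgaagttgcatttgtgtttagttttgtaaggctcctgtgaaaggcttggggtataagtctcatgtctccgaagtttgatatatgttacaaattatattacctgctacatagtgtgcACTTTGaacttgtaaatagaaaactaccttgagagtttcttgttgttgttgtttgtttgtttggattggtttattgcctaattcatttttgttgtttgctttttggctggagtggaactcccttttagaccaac
The Avil window held 1 match, to AGATAA at 102 bases before the start. The Fabp2 window also held 1, to CAAAGT on the minus strand at 134 bases before the start. None of the 6 motifs matched in the Vil1 window, so the letters searched for TEAD, CDX, AP-1 and the basal box were in none of the 3. Among 32536 distinct promoter windows of 250 bases, 9.97% held AGATAA, 12.6% held CAAAGT and 12.6% held GGAATG. The matched motifs did not overlap. Base composition differed widely, with 62.8% G and C in the Vil1 window, 42.0% in that of Avil and 35.6% in that of Fabp2.

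Lats1 had 942.5 and 1129 normalized counts in the Lats1/2 KO libraries, against 2152 and 1974 in the WT libraries. This floxed gene was thus lower in every library labelled KO, and the other floxed gene, Lats2, was not examined here. A normalized count is a count divided by the library's size factor. The listed genes summed to between 13413629 and 14225132 counts in Lats1/2 KO libraries and between 14315314 and 17689207 in WT libraries. WT 2 stood apart from WT 1 for interferon-induced genes, chosen here after their values were seen: Irf7 was 2.90 times, Usp18 3.74 times and B2m 4.75 times higher in WT 2. These genes were also lower in both Lats1/2 KO libraries than in either WT library. Irf7 had 341.3 and 222.0 normalized counts in KO against 1225 and 3558 in WT 1 and 2. Usp18 had 40.7 and 34.4 in KO against 205.7 and 768.7 in WT, and B2m 5226 and 3806 against 9519 and 45251. Of 11 surface mucous genes of the stomach, 10 had rows, among them Gkn1, Gkn2 and Tff1. All 10 fell, beside 11.7% of all genes the authors tested. They summed to 2700313 and 2235056 normalized counts in Lats1/2 KO against 4926032 and 5246390 in WT, so gastric epithelium was abundant in every library.

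Vil1 fell in the Lats1/2 KO pylorus. Vil1 (ENSMUSG00000026175) spans 74409376 to 74435559 of chromosome 1 on GRCm38. Its normalized counts were 10535 and 8286 in Lats1/2 KO 1 and 2, against 16703 and 27971 in WT 1 and 2. Both KO libraries were below both WT libraries, and WT 2 was the highest. The mean was 9411 ± 1590 in Lats1/2 KO and 22337 ± 7968 in WT (SD, n = 2 each), a 2.37-fold lower level. The log2 fold change was -1.25 ± 0.28 (SE) with an adjusted p of 0.0141 in edgeR's quasi-likelihood test, and of 3.87e-04 in the authors' deposited table. Leaving out WT replicate 2 brought the log2 fold change to -0.83, and leaving out WT replicate 1 brought it to -1.57.

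Avil fell as well, by less. Avil (ENSMUSG00000025432, chromosome 10, 127000709 to 127020994) had 13477 and 13512 normalized counts in the 2 Lats1/2 KO libraries, against 20843 and 27553 in WT 1 and 2. The KO libraries were nearly equal and lay below both WT libraries. The mean was 13495 ± 24.6 in Lats1/2 KO and 24198 ± 4745 in WT (SD, n = 2 each), a 1.79-fold lower level. The log2 fold change was -0.84 ± 0.18 (SE), with an edgeR adjusted p of 0.0131 and 4.09e-04 in the authors' deposited table. Without WT replicate 2 it was -0.63.

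Fabp2 fell the most of the 3. Fabp2 (ENSMUSG00000023057, chromosome 3, 122895072 to 122899506) had 3021 and 1579 normalized counts in Lats1/2 KO 1 and 2, against 7474 and 14469 in WT 1 and 2. The groups did not overlap, and the libraries within a group were 1.91 times apart in KO and 1.94 times apart in WT. The mean was 2300 ± 1020 in Lats1/2 KO and 10972 ± 4946 in WT (SD, n = 2 each), a 4.77-fold lower level. The log2 fold change was -2.25 ± 0.43 (SE), with an edgeR adjusted p of 0.0125 and 1.69e-06 in the authors' deposited table. It was -1.70 without WT replicate 2 and -2.80 without Lats1/2 KO replicate 1. The gap between groups, from the highest KO library to the lowest WT library, was 2.47 times for Fabp2, 1.59 times for Vil1 and 1.54 times for Avil.

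**Figure D1:**
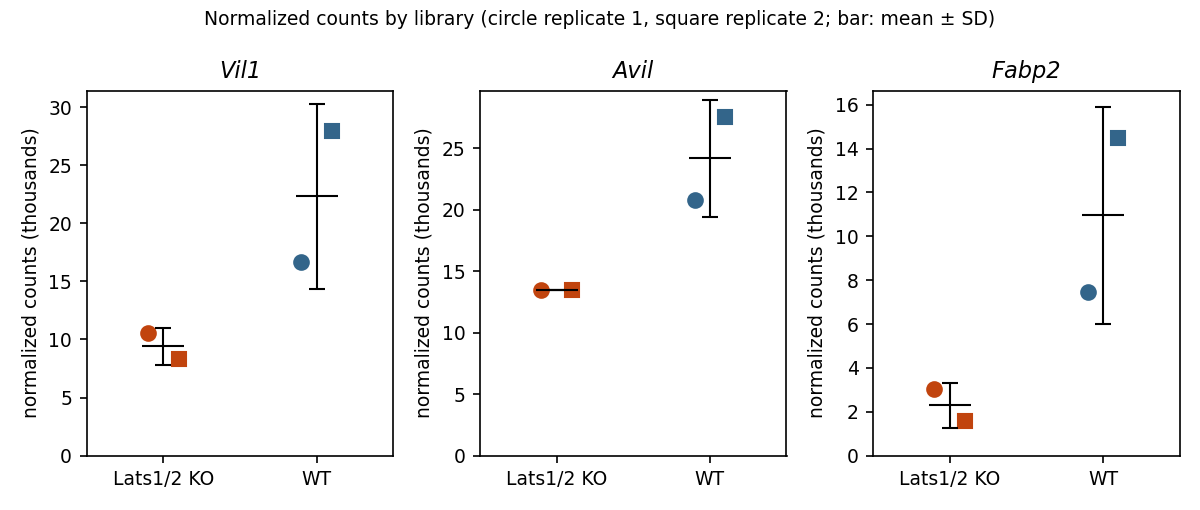
Normalized counts (axis in units of 1000) for Vil1, Avil and Fabp2, with Lats1/2 KO left of WT, 1 point per library (circle replicate 1, square replicate 2) and the mean ± SD. Both Lats1/2 KO points lie below both WT points for each gene, and WT 2 is the highest library in all 3 panels.

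These calls were largely fixed by how the table was made. The authors' deposited table lists 1543 genes as lower and 1158 as higher, 11.7% and 8.81% of about 13141 genes they tested, and 57.1% of the genes in the edgeR fit were called lower and 42.9% higher. The edgeR calls of the 3 genes are therefore not independent of the authors' selection. The same holds for the separation of their KO and WT libraries in normalized counts. By size, the fall of Fabp2 exceeded that of 95.8% of the listed genes that were lower, that of Vil1 82.7% and that of Avil 61.5%. Counting error was 0.628% to 2.22% per value. It was small beside the spread between libraries for Vil1, whose coefficient of variation was 16.9% in KO and 35.7% in WT, and for Fabp2, at 44.3% in KO and 45.1% in WT. For Avil the coefficient was 0.182% in KO, below its counting error of 0.820% and 0.761% there, and 19.6% in WT. With Lats1/2 KO replicate 2 left out, the adjusted p of all 3 genes passed above 0.05 (Vil1 0.0762, Avil 0.0714, Fabp2 0.0702), as it did for nearly all listed genes.

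Per kilobase of exon, the order of the 3 genes differed between groups. In Lats1/2 KO, Avil was highest with 3971 ± 7.24 normalized counts per kilobase, followed by Vil1 with 2650 ± 448 and Fabp2 with 2384 ± 1057 (SD, n = 2). In WT, Fabp2 led with 11370 ± 5125, followed by Avil with 7121 ± 1396 and Vil1 with 6290 ± 2244. Neighbours in this order lay within their spread, apart from Avil above Vil1 in Lats1/2 KO. Exon lengths in GENCODE M21 were 3551, 3398 and 965 bases for Vil1, Avil and Fabp2. On the opposite strand, Tsfm shares 165 exon bases with Avil (4.86% of its exons) and Usp37 shares 49 with Vil1 (1.38%), and neither has a row. The long antisense gene 4933405D12Rik spans Fabp2 and shares none of its exon bases. Whether reads were counted by strand is not given in the sources used here, so reads from the shared bases cannot be told apart.

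A ratio of 2 genes within a library does not depend on library scaling. The ratio of Fabp2 to Vil1 counts was 0.287 and 0.191 in Lats1/2 KO 1 and 2, against 0.447 and 0.517 in WT 1 and 2. The ratio was lower in both KO libraries, with a log2 difference of -1.04 (exact two-sided permutation p = 0.333, the smallest that 2 libraries against 2 allow). The ratio of Avil to Vil1 was 1.28 and 1.63 in KO and 1.25 and 0.985 in WT, groups that just do not overlap, with a log2 difference of 0.38 (exact permutation p = 0.333).

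Relative to Cdh1, which encodes the epithelial adhesion protein E-cadherin and itself fell, each of the 3 falls was smaller than on the normalized counts alone. Cdh1 had 30285 and 32556 normalized counts in Lats1/2 KO and 44796 and 45287 in WT. Vil1 stood at 0.348 and 0.255 of Cdh1 in Lats1/2 KO 1 and 2, against 0.373 and 0.618 in WT 1 and 2. KO 1 and WT 1 were close to each other on this ratio, and WT 2 stood apart. Avil stood at 0.445 and 0.415 of Cdh1 in KO, against 0.465 and 0.608 in WT. Fabp2 stood at 0.0998 and 0.0485 in KO, against 0.167 and 0.320 in WT, the widest separation of the 3. The log2 differences were -0.69 for Vil1, -0.31 for Avil and -1.73 for Fabp2 (exact permutation p = 0.333 each).

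Relative to the gastrokines Gkn1 and Gkn2, secreted products of surface mucous cells that also fell, Vil1 and Avil overlapped between the groups. Per 1000 gastrokine counts, Vil1 had 4.85 and 5.06 in Lats1/2 KO and 4.18 and 6.79 in WT. Avil had 6.21 and 8.25 in KO and 5.22 and 6.69 in WT, so that its log2 difference of 0.28 pointed the other way. Fabp2 remained lower, with 1.39 and 0.964 in KO and 1.87 and 3.51 in WT, a log2 difference of -1.15. The exact two-sided permutation p was 1.00 for Vil1, 0.667 for Avil and 0.333 for Fabp2. The part of surface mucous cells in the falls of Vil1 and Avil was not tested.

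**Figure D2:**
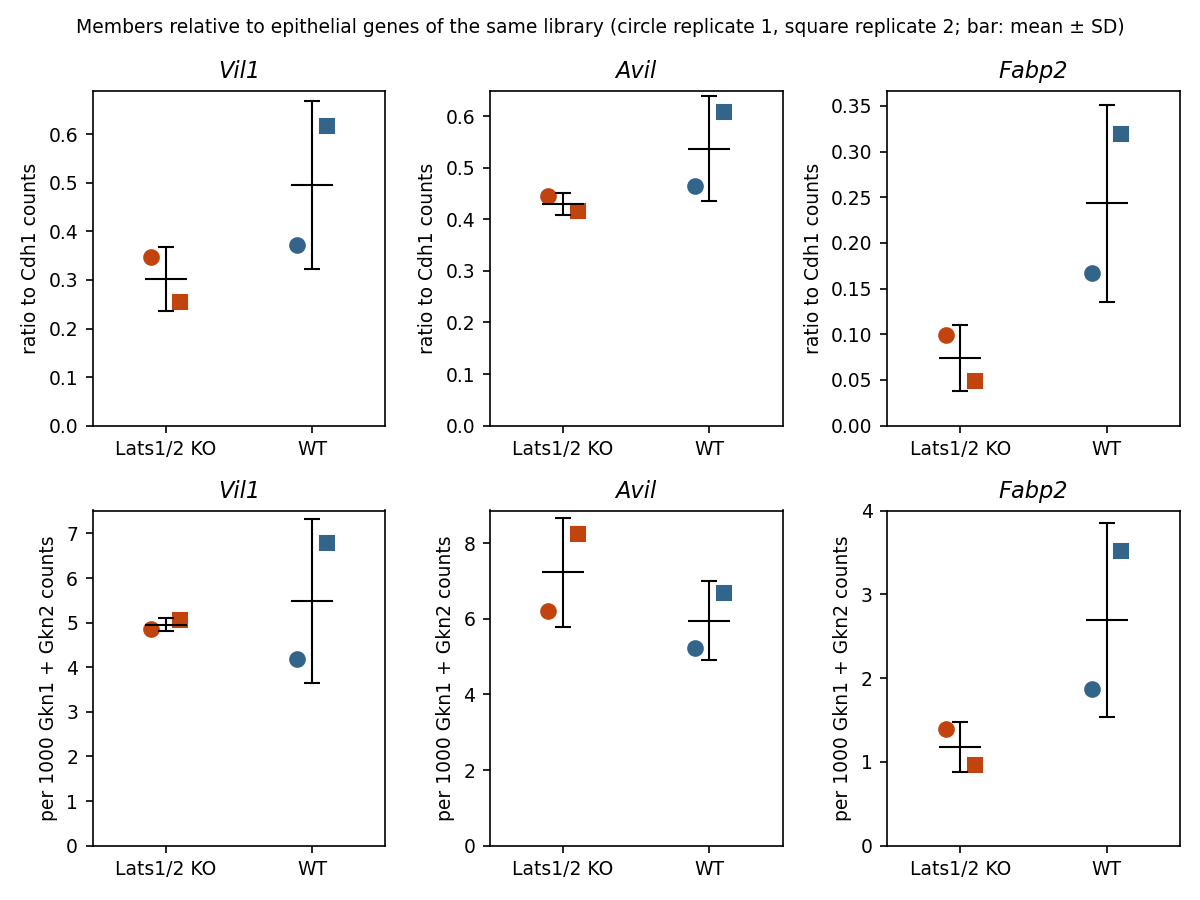
Vil1, Avil and Fabp2 relative to Cdh1 (top) and per 1000 Gkn1 and Gkn2 counts (bottom), Lats1/2 KO left of WT, 1 point per library (circle replicate 1, square replicate 2) with mean ± SD. The groups overlap for Vil1 and Avil in the bottom row and stay apart for Fabp2 in both rows.

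Of the villin and gelsolin family, 5 of 8 genes had rows and all 5 fell, Vil1 and Avil among them. Of the other 6 genes, 3 fell, beside 11.7% of all genes the authors tested. Gelsolin (Gsn), the founding actin-severing protein of the family, had 21900 and 23362 normalized counts in Lats1/2 KO, against 37832 and 45149 in WT. Capg, which caps filament ends, had 6763 and 6118 in KO against 10850 and 12126 in WT. The villin-like gene Vill had 10449 and 9508 in KO against 13105 and 15022 in WT. For each of these the KO libraries lay below the WT libraries, which the selection of called genes favours. Log2 fold changes were -0.87 ± 0.15 for Gsn, -0.83 ± 0.14 for Capg and -0.50 ± 0.14 for Vill (SE), so that the fall of Vil1 was the largest of the 5 with rows. With TMM scaling, computed from the listed genes only, Vill missed the threshold (edgeR adjusted p = 0.343). Most listed genes were lower in KO, so this scaling is biased and makes falls smaller, here and below. Scin, Flii and Svil had no row.

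Among 25 genes of microvillus and brush border structure, 8 had rows and all 8 fell, Vil1 among them. Of the 24 other than Vil1, 7 had rows and all 7 fell, beside 11.7% called lower among all genes tested. Anks4b, a scaffold of the links between microvillus tips, came closest to Vil1, with 1770 and 1514 normalized counts in Lats1/2 KO against 3149 and 3956 in WT. Pls1, which encodes the actin bundler plastin 1, had 8114 and 7575 in KO against 11655 and 14332 in WT. Myo1a, the motor that tethers membrane to the actin core, had 9224 and 8697 in KO against 12604 and 15644 in WT. Myo6, Tpm1, Myo1e and Baiap2l1 had log2 fold changes from -0.66 to -0.40. The naming rule did not select Myo1e and Baiap2l1, which were added with their values known. The 7 genes other than Vil1 had a median of -0.66, against -0.73 for all listed genes that were lower, and -0.49 without WT replicate 2. With TMM scaling 6 of these 7 missed the threshold of edgeR's test, all but Anks4b, and with DESeq2 factors computed from the listed genes Baiap2l1 was at 0.01.

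Of 15 lipid handling genes of the enterocyte, 5 fell, Fabp2 among them, and 1 rose. Of the 14 other than Fabp2, 4 fell and 1 rose, beside 11.7% lower and 8.81% higher among all genes tested. Rbp2, a retinol carrier of enterocytes in the same lipid binding family, had 5334 and 3196 normalized counts in Lats1/2 KO, against 9119 and 15223 in WT. Its libraries fall in the same order as those of Fabp2, an order that Vil1, Anks4b and Gkn1, among others, also have. Rbp2 and Fabp2 were the members with rows among 15 of that family. Of the 14 other than Fabp2, 1 had a row, beside 20.6% of all genes tested. Dgat2 and Dgat1, which make triglyceride, had log2 fold changes of -1.58 ± 0.18 and -1.27 ± 0.28 (SE). The fatty acid transporter gene Slc27a4 was at 1544 and 1591 in KO against 1953 and 3597 in WT, with an edgeR adjusted p of 0.180 on TMM scaling and a log2 fold change of -0.32 without WT replicate 2, in place of -0.82. Cd36, a fatty acid receptor, went the other way with 134.0 and 606.5 in KO against 93.4 and 81.6 in WT. Its log2 fold change of 2.08 was 0.61 without Lats1/2 KO replicate 2.

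**Figure D3:**
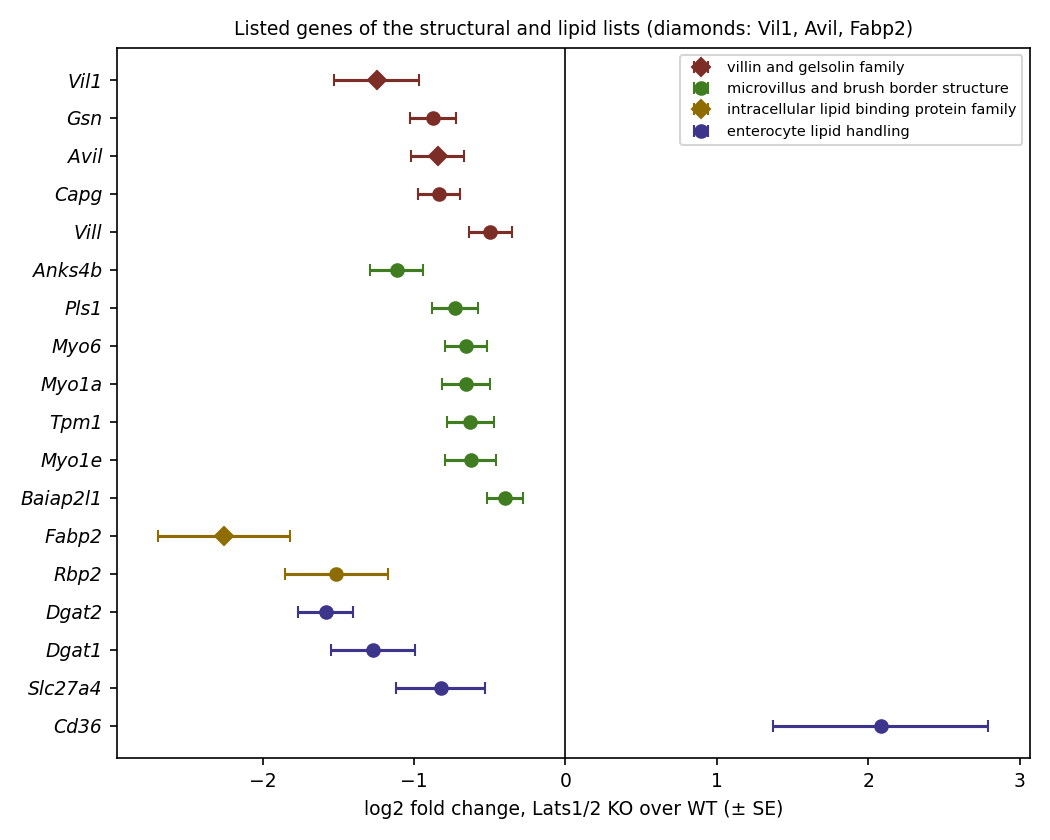
Log2 fold changes (Lats1/2 KO over WT, ± SE) of the listed genes of 4 lists, with diamonds for Vil1, Avil and Fabp2. Fabp2 lies farthest left at -2.25 and Cd36 is the only gene to the right of 0.

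The cell types that these genes mark could not be checked in this table. None of 18 enterocyte enzyme and transporter genes, such as Alpi, Sis and Lct, had a row, beside 20.6% of all genes tested. Of 25 tuft cell markers, 2 had rows, Avil and Kctd12. Of the 24 other than Avil, 1 had a row, beside 20.6% of all genes tested. Dclk1, Trpm5 and Pou2f3 had none. The summed level of Avil and Kctd12 was 13602 and 13627 normalized counts in Lats1/2 KO against 21066 and 27906 in WT. Almost all of it was Avil. Kctd12 had 124.9 and 114.9 in KO against 222.1 and 352.9 in WT, with an edgeR adjusted p of 0.0565 on TMM scaling. None of 11 neuron and glia markers had a row, beside the same 20.6%. Whether the Avil counts came from tuft cells was not tested.

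Some markers of other cells had rows too. Beside them, 20.6% of all genes the authors tested were called different, 11.7% lower and 8.81% higher. Of 8 parietal genes, 3 had rows, all lower, with Kcnj15 at -1.71 on the log2 scale. Rab3d, the 1 chief cell gene of 6 with a row, was lower at -0.41. With TMM scaling Rab3d and 2 of the 3 parietal genes missed the threshold. Dmbt1, the 1 neck and gland mucous gene of 6, was higher at 0.93. Of 11 enteroendocrine genes, 2 had rows, both higher: Ghrl at 4.34 and Sst at 2.76. Without Lats1/2 KO replicate 2 they were at 2.70 and 1.24. Fibroblast genes had 3 of 6 with rows, all lower (none past the threshold with TMM scaling), with a summed level of 7414 and 6332 normalized counts in Lats1/2 KO against 10068 and 13681 in WT. Kdr was the 1 endothelial gene of 4, at 334.1 and 338.4 in KO against 461.9 and 698.2 in WT, or -0.79 on the log2 scale and -0.46 with WT replicate 2 left out, and its edgeR adjusted p on TMM scaling was 0.184. Of 12 exocrine pancreas genes, 2 had rows (16.7%). Cela1 was higher in KO, and Cela2a had 3.62 and 0.782 in KO against 6.31 and 215.1 in WT, the last in WT 2. None of 6 smooth muscle markers and none of 7 general immune markers had a row. Several of these were highest in WT 2, as the 3 genes were, and their part in the result was not tested.

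The genes whose pattern over the 4 libraries was most like each of the 3 differed. Likeness was the Euclidean distance between log2(normalized count + 1) values centred on each gene's mean, over 2578 named genes, and it describes 4 libraries only. Avil had very close neighbours: Epb41l4b at a distance of 0.0340, Ptk2b at 0.0495, Arhgap27 at 0.0534, Leng9 at 0.0555 and Cacfd1 at 0.0600. Vil1 was most like Nmi at 0.0995, Gimap8 at 0.102, Trim21 at 0.130, Acsf2 at 0.143 and Ptprh at 0.149. Fabp2 was most like Trim5 at 0.163, Ces1b at 0.192, Mndal at 0.198, Dtx3l at 0.220 and Aldh3b2 at 0.229. None of the 3 was among the 5 genes most like another. Among the 2578 genes, Avil ranked 262 by likeness to Vil1, at a distance of 0.515. Vil1 ranked 153 by likeness to Fabp2, at a distance of 1.13, and Avil ranked 512, at 1.62. In the other direction, at the same distances, the ranks were larger. Vil1 ranked 1082 by likeness to Avil, and Fabp2 ranked 1400 by likeness to Vil1 and 1639 by likeness to Avil.

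**Figure D4:**
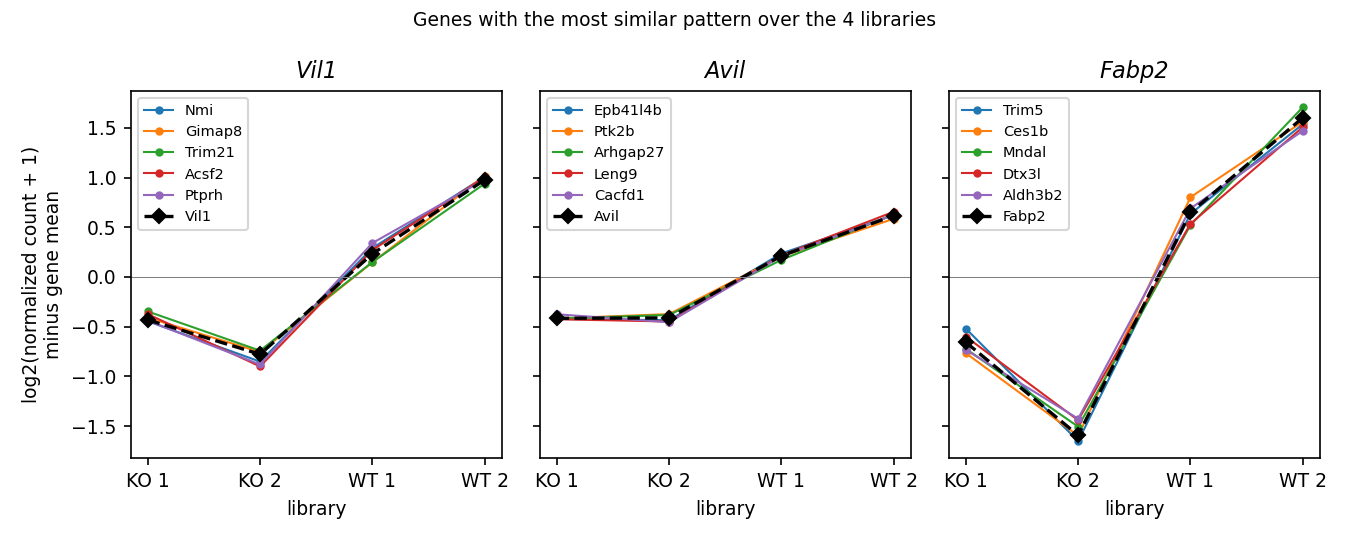
Log2(normalized count + 1) minus the gene's mean for Vil1, Avil and Fabp2 (dashed) and the 5 genes most like each, by library, with lines joining libraries that have no order. Avil is flat across the Lats1/2 KO libraries, while Vil1 and Fabp2 are lower in KO 2 than in KO 1, and Fabp2 spans the widest range of these 3.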

How the data were processed

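Libraries of poly(A) RNA from pyloric cryosections kept strand and were sequenced as pairs of 75 bp reads, per the labels' protocols. The submitters' processing notes name TopHat2 2.1.1, HTSeq, DESeq2 and GRCm38 and no settings. The deposited values are raw whole-number counts for each gene in each library. Beside them, per the file headers, stand the authors' DESeq2 columns: base mean (a signal, the average of size-factor-scaled counts), log2 fold change and its SE, Wald statistic (a score), p-value and adjusted p-value. Deposited starts of 2214 of 2701 genes, the 3 described here included, lie 1 below GENCODE M21, and 1 was added to starts that are printed. Size factors were solved from base means and counts, and base means rebuilt from them deviated by at most 0.0119%.

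Counts were tested with edgeR 4.0.16 (quasi-likelihood, these factors, filterByExpr, Benjamini-Hochberg over 2700 genes, R 4.3.3), after a check on simulated data. How many genes the authors tested (13141) was computed from their p-values and adjusted p-values. Ratios were tested by exact permutation. No source says that libraries are separate mice, so p-values measure the spread between these libraries. Members, gene lists and rules were chosen with earlier results of these data known. Genes were named by list (at most 6 by adjusted p) and by likeness. The verbs rose and fell are used of genes with a row in the deposited table. DESeq2 1.42.0 and other scalings were tried as alternatives.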

Additional observations from a re-analysis of the deposited data

How the results depend on the processing

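The log2 fold changes of Vil1, Avil and Fabp2 stayed negative under every scaling, test, filter and left-out library tried. For each gene both KO libraries lay below both WT libraries, so leaving out a library on the same size factors could not change the sign. The 3 genes missed the threshold only without Lats1/2 KO replicate 2. TMM factors computed from the listed genes shifted all log2 fold changes by 0.36 and DESeq2 factors by 0.41, which brought Avil to -0.48 and -0.43 and Vil1 to -0.88 and -0.83. Genes called lower numbered 494 with TMM factors and 432 with DESeq2 factors, against 1541. Most listed genes were lower in KO, so factors computed from them are biased and make falls smaller. Without single libraries the log2 fold change ranged from -1.57 to -0.83 for Vil1, from -1.03 to -0.63 for Avil and from -2.80 to -1.70 for Fabp2, genes called lower from 1 to 1416, and genes called higher from 4 to 1038. A group left with 1 library was assumed to vary like the other group. With the replicate number as a block, Vil1 was at -1.21, Avil at -0.83 and Fabp2 at -2.25, with 1451 genes lower and 1084 higher. The labels tie no numbers together, and the deviations of same-numbered libraries correlated across genes at -0.16. The ratio of Vil1 to gastrokines changed sign without WT replicate 2 (0.25) and was -0.45 without WT replicate 1, settings chosen after the data were seen. The table's limit to called genes and the 2 libraries per group both limit these results.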

Other observations

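Among 20 lineage transcription factor genes, 7 had rows (35.0%, against 20.6% of all genes tested). Of these, 5 were lower and 2 higher in the Lats1/2 KO pylorus. Gata4, a factor of stomach and intestinal epithelium, had 4456 and 4338 normalized counts in Lats1/2 KO against 6814 and 8205 in WT. Pdx1, a factor of the antrum and duodenum, had 1297 and 1140 in KO against 1829 and 2193 in WT. Creb3l3, which controls lipid genes in intestine and liver, had 679.1 and 407.2 in KO against 870.7 and 2226 in WT, and its log2 fold change of -1.51 was -0.68 without WT replicate 2. With TMM scaling Pdx1, Creb3l3, Klf4 and Prdm1 missed the threshold (edgeR adjusted p from 0.0778 to 0.104). Klf4 and Prdm1 were lower, with log2 fold changes of -0.78 and -1.07 (Prdm1 -0.61 without WT replicate 2), and Klf5 was higher, at 0.65. Cdx1, Cdx2 and Hnf4a had no row.

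Among goblet and Paneth cell genes, Clca1 fell, with 211282 and 146719 normalized counts in Lats1/2 KO against 363797 and 374630 in WT. The lysozyme gene Lyz1 rose, with 207.3 and 187.6 in KO against 31.5 and 75.0 in WT. Of the epithelial genes, Cldn7, a tight junction protein gene, rose to 3261 and 3301 in KO, against 1611 and 2207 in WT, while Cdh1, Krt8 and Krt19 fell and missed the threshold with TMM scaling.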
